A study of Homo sapiens with 6 samples.

Results

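RFX6 and 9 further transcription factors of the foregut endoderm, GATA4, GATA6, SOX9, SOX4, HHEX, PROX1, PDX1, CDX2 and SOX17, were followed in the RNA of bile duct cancer cells with and without STUB1 overexpression. These 10 genes were taken by symbol from a table of 23569 genes, and 10 of the 10 symbols were listed. RFX6 is among the genes that the study picked from these 6 libraries for a follow-up by RT-qPCR, whose values are not analysed here. In that follow-up the paper reports a significant inhibition for another gene only, so the fall of RFX6 rests on RNA-seq alone. The other 9 were chosen for their role with earlier results of this comparison known. The members were thus selected on the oeSTUB1 and oeNC values of these libraries, and their values are given as a description, with standard errors and no p-values.

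The cells were TFK1, a human line that grew out of a carcinoma of the extrahepatic bile duct. The control group, oeNC, carried a lentiviral negative control, and the oeSTUB1 group carried the coding sequence of STUB1, a chaperone-dependent E3 ubiquitin ligase, in the lentiviral pHAGE vector. Both groups were selected with puromycin as stable populations, no other treatment is given in the labels, and total RNA was sequenced in 3 libraries per group. Each group was 1 stable population as far as the sources say, so that the population and the overexpressed gene cannot be told apart, and nothing says that the 3 libraries came from separate cultures. The p-values given for other genes then measure only the spread between these libraries.

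The endoderm is patterned along the gut tube by transcription factors whose domains meet where the liver, bile duct and pancreas bud. HHEX and PROX1 act in the liver and biliary buds, GATA4, GATA6 and SOX17 act from the first endoderm onwards, SOX9 marks the ducts, PDX1 marks the pancreas and duodenum, and CDX2 directs intestinal identity behind them. RFX6, a winged-helix factor of the regulatory factor X family, acts in the endocrine lineage of pancreas and gut, and SOX4 is an SRY-box factor of progenitor cells that is also active in many carcinomas.

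Expression was given as FPKM, fragments scaled to gene length and to the library total, from which whole fragment numbers were recovered. The libraries held between 33106564 and 36744521 fragments. Differences are log2 fold changes of oeSTUB1 minus oeNC on the log2(FPKM + 0.1) scale, which understates the change of genes with low values. They were fitted with limma over the 15353 genes whose mean FPKM over the 6 libraries reached 0.1. A gene was called when its Benjamini-Hochberg adjusted p was under 0.05 and its log2 fold change beyond 1 in either direction. Of the 10 factors, 8 passed this filter and 2, PDX1 and PROX1, were below it. STUB1 had 32.9, 33.0 and 30.9 FPKM in the oeNC libraries and 61.4, 74.97 and 61.9 FPKM in the oeSTUB1 libraries.

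RFX6 was nearly absent from the oeSTUB1 libraries. It had 0.269, 0.431 and 0.660 FPKM in oeNC replicates 1, 2 and 3 against 0, 0 and 0.0078 FPKM in oeSTUB1. These values stood for 35, 56 and 91 fragments in oeNC and for 0, 0 and 1 in oeSTUB1, so the groups did not overlap. The oeNC libraries themselves were 2.46-fold apart, and their mean was 0.453 ± 0.197 FPKM (SD, n = 3), a level above that of 45.8% of the listed genes.

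Pooled over the libraries of each group, RFX6 had 182 fragments in oeNC and 1 in oeSTUB1, a ratio of 174 after scaling to the library totals, with an exact 95% interval of 30.9 to 6930. That interval covers counting error only, and a count of 0 would still allow up to 3 fragments, which is 0.0232 to 0.0242 FPKM of RFX6 in an oeSTUB1 library. The fitted log2 fold change was -2.37 (SE 0.30). Because the oeSTUB1 group was at this floor, the fitted value depended on the pseudocount and is no bound. RFX6 lies on the plus strand of chromosome 6, from 116877212 to 116932163 in GRCh38 (GENCODE release 29), and is protein coding. In bulk RNA, fewer cells that hold a transcript and less of it per cell cannot be told apart.

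CDX2, the caudal-type homeobox factor of the intestine, was lower in each oeSTUB1 library than in any oeNC library. Its values were 0.178, 0.370 and 0.379 FPKM in oeNC and 0.0128, 0.0400 and 0.0129 FPKM in oeSTUB1. These came from 28, 58 and 63 fragments against 2, 6 and 2. The group means were 0.309 ± 0.113 and 0.0219 ± 0.0157 FPKM (SD, n = 3 each). The log2 fold change was -1.71 (SE 0.29), and the ratio of pooled fragments, oeNC over oeSTUB1, was 14.3 with an exact 95% counting interval of 7.55 to 30.4. As for RFX6, the lowest of the oeNC libraries was replicate 1 and the highest replicate 3.

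PDX1, the homeobox factor of the pancreas and duodenum, belongs to the same ParaHox cluster. On chromosome 13 its end at 27926231 is separated by 35905 bases from CDX2, which lies on the minus strand from 27962137 to 27971139. PDX1 was close to the detection limit, with 5, 3 and 3 fragments in oeNC and 3, 1 and 2 in oeSTUB1. The oeNC mean was 0.0400 ± 0.0133 FPKM and the oeSTUB1 mean 0.0225 ± 0.0109 FPKM (SD, n = 3 each), and the groups overlapped. The pooled ratio, oeNC over oeSTUB1, was 1.76 with an exact 95% counting interval of 0.596 to 5.79, so a difference of PDX1 was not detectable at this depth.

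**Figure D1:**
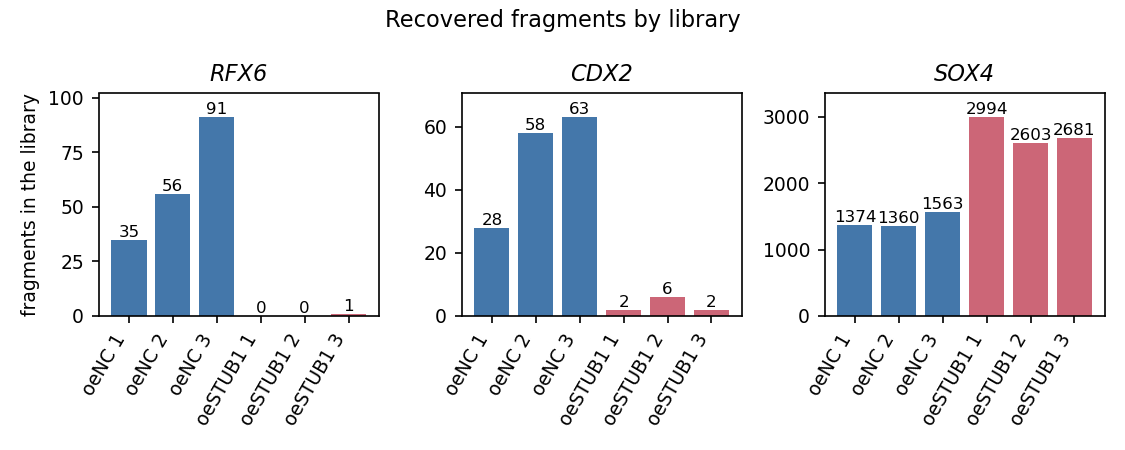
Fragments of RFX6, CDX2 and SOX4 recovered in each of the 6 libraries, not scaled to the library total, with oeNC in blue and oeSTUB1 in red. RFX6 had 35, 56 and 91 fragments against 0, 0 and 1, CDX2 had 28, 58 and 63 against 2, 6 and 2, and SOX4 had 1374, 1360 and 1563 against 2994, 2603 and 2681.

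SOX4 was higher in the oeSTUB1 libraries. It had 8.13, 8.06 and 8.74 FPKM in oeNC and 17.8, 16.1 and 16.1 FPKM in oeSTUB1. The lowest oeSTUB1 library was well above the highest oeNC library, and within each group the libraries were at most 1.11-fold apart. The means were 8.31 ± 0.372 and 16.7 ± 0.990 FPKM (SD, n = 3 each), a ratio of 2.01. The log2 fold change of 1.00 (SE 0.08) was 0.998 before rounding, just short of the minimum for a call. It passed 1 when oeNC replicate 3 was left out (1.03), and when oeSTUB1 replicate 2 (1.02) or oeSTUB1 replicate 3 (1.02) was left out. SOX4 lies on the plus strand of chromosome 6 from 21592768 to 21598619, away from RFX6 on the same chromosome. It shares 168 exon bases with AL512380.2 on the opposite strand.

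SOX9 and SOX17 belong to the same SRY-box family and overlapped between the groups. SOX9, the duct and progenitor factor, had 4.33, 5.17 and 5.54 FPKM in oeNC and 3.96, 4.06 and 4.68 FPKM in oeSTUB1. Its log2 fold change was -0.23 (SE 0.12), with oeSTUB1 replicate 3 above oeNC replicate 1. SOX17, a factor of the definitive endoderm and of the bile duct progenitor, had 0.528, 0.566 and 0.696 FPKM in oeNC and 0.507, 0.811 and 0.611 FPKM in oeSTUB1. Its log2 fold change was 0.08 (SE 0.20), its lowest and highest values were both in oeSTUB1 libraries, and it turned to -0.08 without oeSTUB1 replicate 2.

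GATA6 values were lower in the oeSTUB1 libraries, though GATA6 was not called, and GATA4 values overlapped between the groups. Whether these paralogs differed in their response was not tested. GATA6, a zinc finger factor of endoderm and pancreas, had 1.96, 1.74 and 2.22 FPKM in oeNC and 1.26, 1.58 and 1.30 FPKM in oeSTUB1, and the groups did not overlap. The oeNC mean was 1.97 ± 0.244 FPKM and the oeSTUB1 mean 1.38 ± 0.173 FPKM (SD, n = 3 each), which is 69.9% of oeNC, with a log2 fold change of -0.49 (SE 0.15). GATA4, the paralogous factor, had 0.831, 0.907 and 1.23 FPKM in oeNC and 0.897, 0.918 and 0.989 FPKM in oeSTUB1. Its 3 oeSTUB1 libraries lay inside the range of the oeNC libraries. The log2 fold change of GATA4 was -0.06 (SE 0.17), and it turned to 0.10 without oeNC replicate 3 and to 0.01 with quantile normalization. GATA6 lies on the plus strand of chromosome 18 from 22169443 to 22202528. It shares 240 exon bases with GATA6-AS1 and 321 with AC091588.3 on the opposite strand, and since the use of strand in counting is not given in the sources used here, reads of these genes may not have been told apart.

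HHEX, a homeobox factor of the liver bud, had the highest mean FPKM of the 10 genes in both groups. It had 20.1, 19.0 and 19.4 FPKM in oeNC and 17.3, 21.4 and 17.2 FPKM in oeSTUB1. The oeSTUB1 libraries lay on both sides of the oeNC libraries, with replicate 2 the highest of the 6, and the log2 fold change was -0.07 (SE 0.10). HHEX lies on the plus strand of chromosome 10 from 92689951 to 92695646. PROX1, the prospero-type homeobox factor of liver and lymphatic endothelium, was near the detection limit, with 0, 4 and 4 fragments in oeNC and 5, 5 and 10 in oeSTUB1. Its levels were 0, 0.0118 and 0.0111 FPKM against 0.0148, 0.0154 and 0.0299 FPKM, which did not overlap. The ratio of the pooled 20 fragments in oeSTUB1 to the 8 in oeNC was 2.61, with an exact 95% counting interval of 1.10 to 6.84, and 171 exon bases of PROX1 are shared with PROX1-AS1 on the other strand.

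The RefSeq promoter table (GRCh38.p14) held 4 of the 10 genes, CDX2, SOX4, HHEX and GATA6. The 30 bases before the RefSeq start are shown for them, since CDX2 and SOX4 differed in opposite directions and HHEX overlapped between the groups. Capitals mark CG dinucleotides, and each is written in the direction of its gene, at chr13:27969316-27969345 (minus strand), chr6:21593721-21593750, chr10:92689925-92689954 and chr18:22169559-22169588 (plus strand) in this order. The windows of CDX2, SOX4 and GATA6 lie within exons of longer GENCODE transcripts of these genes.
CDX2: attactaatagagtcttgtaaacactCGtt
SOX4: ataaagaggCGCGaggCGgaattggggtct
HHEX: gataaatgtagCGcCGCGgCGCGggccagc
GATA6: tttattcaccagcagCGCGgCGcagacccc
The 250 bases before the start held 10 CG in CDX2, 8 in SOX4, 38 in HHEX and 16 in GATA6, against a median of 11 over 35116 promoters of that length. At least as many CG were found in 52.2% of all promoters for CDX2, 56.3% for SOX4, 3.28% for HHEX and 41.0% for GATA6. HHEX thus stood apart in CG content, and CDX2, SOX4 and GATA6 lay near the middle. A relation of CG content to the differences between the groups was not tested.

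On both strands of these 250 bases the letters GATAA occurred 1 time each in CDX2, SOX4 and HHEX and 0 times in GATA6, and 20.4% of all promoters held them. ACAAT occurred 1 time in CDX2 and 0 times in the other 3, with 24.6% of all promoters holding it. TTTATG occurred in 0 of the 4, with 9.64% of all promoters holding it, and matches of different motifs overlapped 0 times. These matches are a description of the letters in this window.

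**Figure D2:**
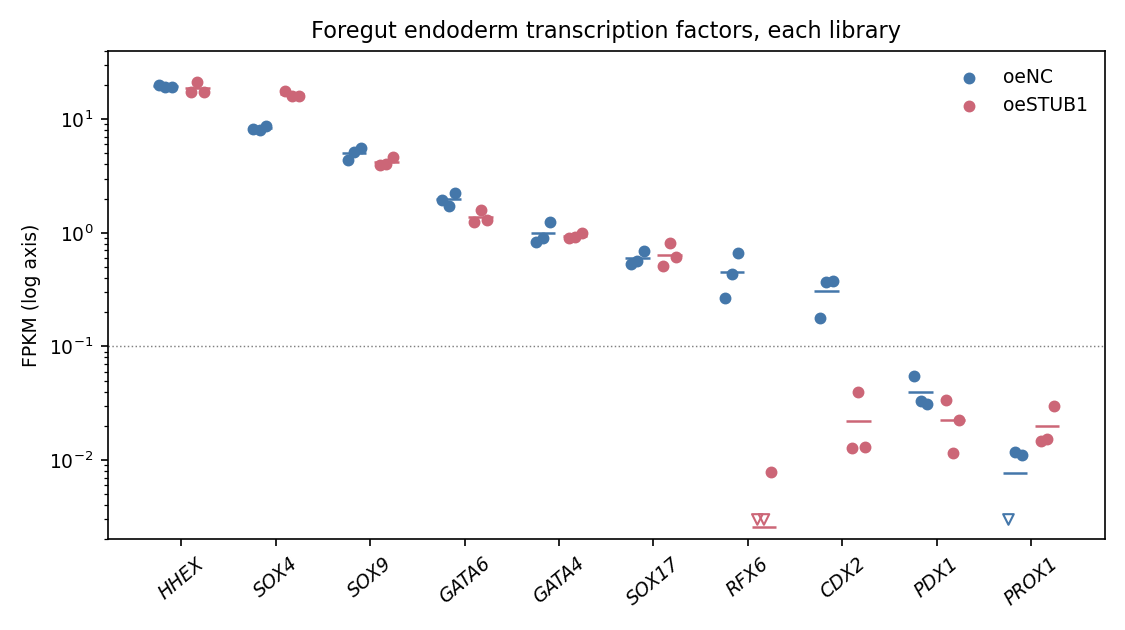
FPKM of the 10 factors in each library on a log axis, ordered by their oeNC mean, with oeNC in blue, oeSTUB1 in red, short lines for group means, open triangles for libraries at 0 and a dotted line at the filter of 0.1 FPKM. HHEX, SOX4, SOX9, GATA6, GATA4 and SOX17 hold the same order in both groups, while RFX6 moves from the seventh place to the last.

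By mean FPKM, a scale per length, the order in oeNC was HHEX, SOX4, SOX9, GATA6, GATA4, SOX17, RFX6, CDX2, PDX1 and PROX1. The ranges of neighbours over the 3 oeNC libraries were separate, apart from those of SOX17 and RFX6 and of RFX6 and CDX2, which overlapped. In oeSTUB1 the first 6 genes held the same order, followed by PDX1, CDX2, PROX1 and RFX6. There the ranges of HHEX and SOX4 overlapped, as did those of PDX1 and CDX2 and of CDX2 and PROX1.

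The 10 factors summed to 36.4, 36.3 and 38.9 FPKM in oeNC and to 41.8, 45.0 and 41.0 FPKM in oeSTUB1. In oeNC, HHEX and SOX4 together made up 72.3% to 77.6% of this sum, and in oeSTUB1 81.3% to 84.0%. SOX4 alone took 22.2% to 22.5% of it in oeNC libraries against 35.9% to 42.7% in oeSTUB1 libraries. Between the groups SOX4 had the largest difference in mean FPKM of the 10. Among the oeSTUB1 libraries the highest sum, that of replicate 2, went with the highest HHEX value and the lowest share of SOX4, and RFX6 and CDX2 together made up little of any sum.

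Among the 8 factors that passed the filter, 2 were called lower, RFX6 and CDX2, and 0 were called higher. Over all tested genes 2.40% were called lower and 2.79% higher. The log2 fold change was above 0 in 2 of the 8 factors and below 0 in 6, with a median of -0.15 against 0.02 for all tested genes. The choice of the members used this comparison, so nothing is read from these counts. In 36 of the tested genes the log2 fold change was lower than that of RFX6 and in 114 lower than that of CDX2, and in 482 it was higher than that of SOX4. The groups did not overlap for 3 of the 8 factors with oeSTUB1 below (RFX6, CDX2 and GATA6) and for 1 with oeSTUB1 above (SOX4), against 17.3% and 21.5% of all tested genes and 38.8% in either direction.

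**Figure D3:**
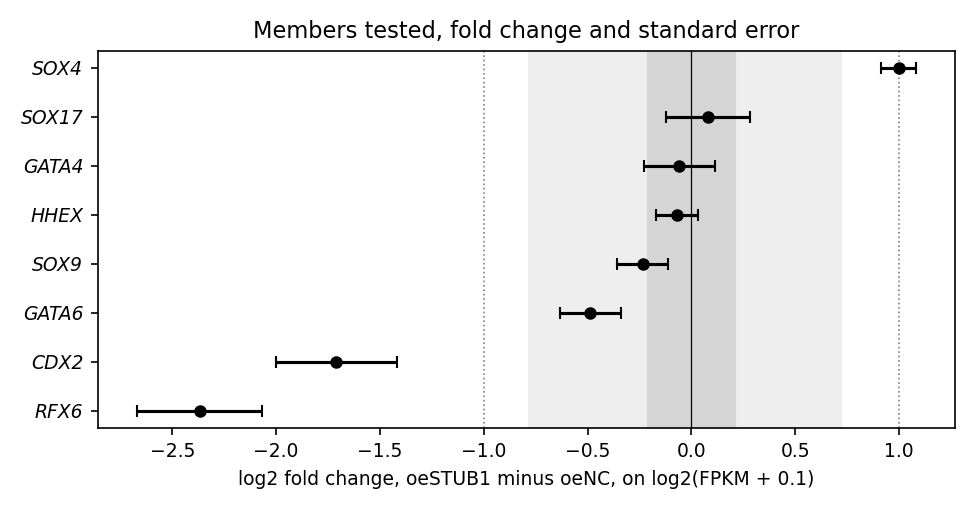
Log2 fold change of oeSTUB1 minus oeNC on the log2(FPKM + 0.1) scale for the 8 factors that passed the filter, with bars for the standard error, grey bands from the 25th to the 75th and from the 5th to the 95th percentile of all tested genes and dotted lines at the minimum of 1 in either direction. RFX6 at -2.37 and CDX2 at -1.71 lie left of both bands, SOX4 at 1.00 lies right of them, and the other 5 lie between -0.49 and 0.08.

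The spread within the control group differed between the factors. The coefficient of variation over the oeNC libraries was 43.4% for RFX6 and 36.7% for CDX2, against 2.79% for HHEX and 4.48% for SOX4. Of the 10 factors, 7 had their highest oeNC value in replicate 3, where 42.9% of all tested genes had theirs, and 6 had their lowest in replicate 1, where 37.4% of all tested genes had theirs. For RFX6 and CDX2 the lowest oeNC library, replicate 1, was still above each oeSTUB1 library. Without any single library their log2 fold changes stayed between -2.63 and -2.11 for RFX6 and between -1.97 and -1.58 for CDX2.

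The genes outside the list whose profile over the 6 libraries was nearest to that of RFX6, by the root mean square difference of centred log2(FPKM + 0.1), were RGCC (0.185), LINC01322 (0.185) and RASGEF1B (0.192). RGCC, a regulator of the cell cycle, had a mean of 1.57 FPKM in oeNC and 0.226 FPKM in oeSTUB1. LINC01322, a long noncoding RNA, had 13, 22 and 23 fragments in oeNC and 1 in each oeSTUB1 library. RASGEF1B, a guanine nucleotide exchange factor, had 77, 86 and 163 fragments against 14, 6 and 12. Like RFX6, these 3 genes had their lowest oeNC value in replicate 1, as did 37.4% of all tested genes. That library entered the ranking by which they were chosen. Nearest to CDX2 were PAX2 (0.212), a paired-box factor of kidney and brain, SP8 (0.219), a zinc finger factor of the limb bud, and CHST9 (0.224), a sulfotransferase. PAX2 had 148, 163 and 199 fragments in oeNC and 28, 41 and 26 in oeSTUB1. These likenesses were ranked over the same 6 libraries and follow mostly from the difference between the groups.

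Around RFX6 stand its own family, the endocrine genes that mark the lineage in which it acts, and the genes of the intestine that CDX2 marks. These lists, with 3 further lists of foregut factors and endoderm genes, named 113 genes besides the 10 factors, of which 90 were listed and 57 tested. Of the 57, 4 were called higher and 8 lower, against 429 (2.79%) and 369 (2.40%) of all 15353 tested genes. The lists were chosen with earlier results of these data known, so nothing is read from the counts in them. The median log2 fold change was -0.26.

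None of the 7 tested genes of the RFX family and its partners was called or had an adjusted p under 0.05 from limma with Benjamini-Hochberg adjustment. Over all tested genes, 5.20% were called and 13.6% had an adjusted p under 0.05, in either direction. RFX5, which acts on MHC class II promoters, had means of 16.5 and 18.03 FPKM in oeNC and oeSTUB1 (log2 fold change 0.12, limma, adjusted p = 0.46). Its partner RFXANK had 10.4 and 14.4 FPKM (0.44, limma, adjusted p = 0.13). RFX7 had a log2 fold change of -0.20 and RFX1 of -0.21, with adjusted p-values from limma of 0.57 and 0.26. Whether RFX6 differed from its relatives in its response was not tested, and each of these relatives had a higher level than RFX6 in both groups.

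Of 10 tested relatives of the GATA, SOX, PROX and CDX factors, 2 were called higher and 0 lower, and both were SRY-box genes. SOX2, a factor of the anterior foregut and of stem cells, rose from 1.48 ± 0.207 to 3.53 ± 0.322 FPKM (SD, n = 3 each), a log2 fold change of 1.21 (SE 0.14, limma, adjusted p = 0.0014). It had 1.70, 1.29 and 1.45 FPKM in oeNC and 3.88, 3.25 and 3.47 FPKM in oeSTUB1. SOX7, the F-group relative of SOX17, rose from 6, 6 and 10 fragments to 38, 23 and 19, with a log2 fold change of 1.04 (limma, adjusted p = 0.038). The call of SOX7 was lost without oeNC replicate 1 (limma, adjusted p = 0.13), oeNC replicate 2 (0.13), oeNC replicate 3 (0.084) or oeSTUB1 replicate 1 (0.11). GATA2, a blood and endothelial factor, had a log2 fold change of -0.61 (limma, adjusted p = 0.027), short of the minimum, and GATA3 one of 0.40 (limma, adjusted p = 0.25). The adjusted p of GATA2 stayed under 0.05 in 2 of the 6 fits that left out 1 library and reached 0.11 without oeNC replicate 3.

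**Figure D4:**
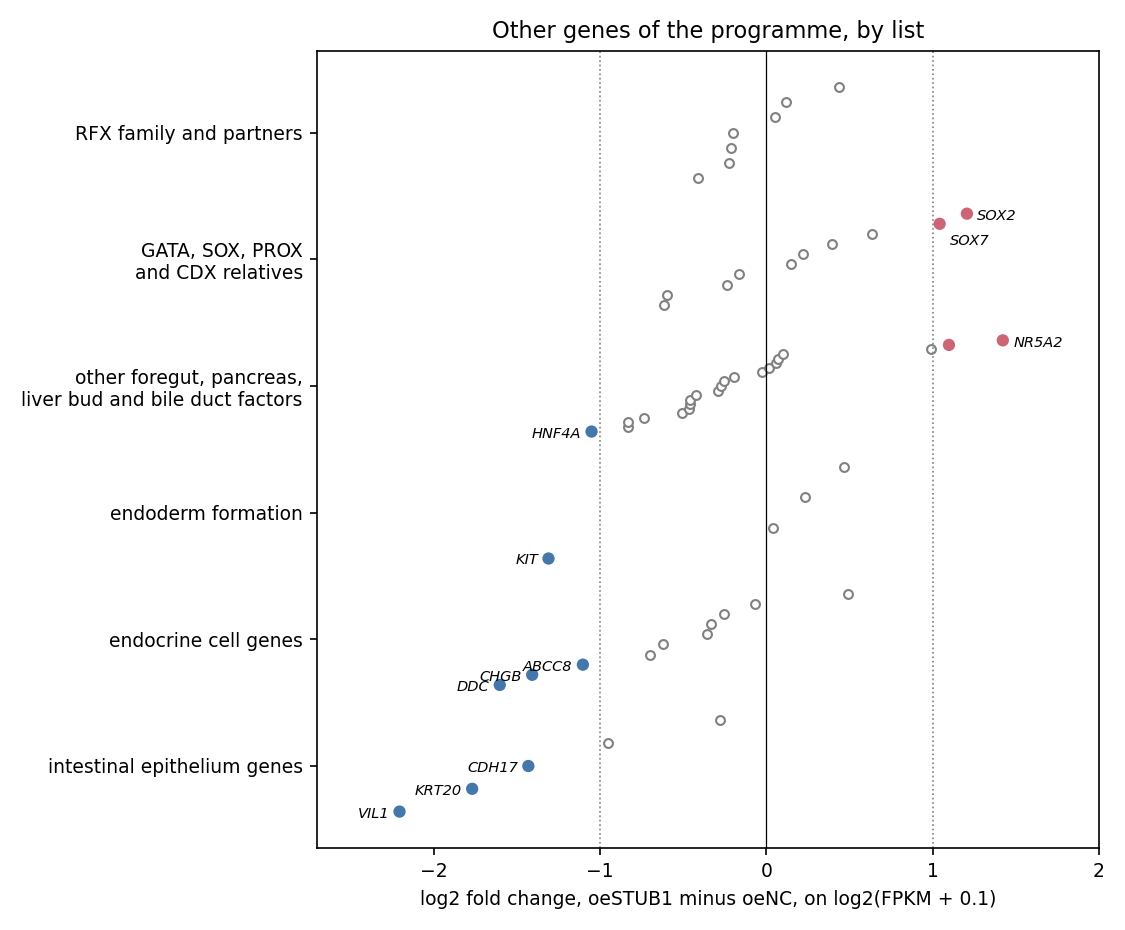
Log2 fold change of oeSTUB1 minus oeNC for the 57 tested genes of the 6 lists, each point a gene, filled red where called higher, filled blue where called lower and open where not called, with dotted lines at the minimum of 1 in either direction. The 5 intestinal genes all lie below 0, with 3 of them called, and 9 of the 10 endocrine genes lie below 0, with 3 called. Over all 15353 tested genes, 7270 had a log2 fold change below 0.

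Of the 21 tested factors of the foregut, pancreas, liver bud and bile duct, 2 were called higher and 1 lower. NR5A2, a nuclear receptor of liver and pancreas, rose from 3.74, 3.71 and 3.44 FPKM to 10.7, 9.001 and 10.1 FPKM, a log2 fold change of 1.42 (SE 0.10, limma, adjusted p = 0.00018). HNF4A, a nuclear receptor of liver and gut, fell from 10.8 ± 0.658 to 5.20 ± 0.808 FPKM (SD, n = 3 each), a log2 fold change of -1.05 (SE 0.13, limma, adjusted p = 0.0018) that was -0.92 without oeSTUB1 replicate 2. FOXA2, a pioneer factor of the endoderm with 15.2 and 13.1 FPKM, and GLIS3, a zinc finger factor of ducts and beta cells with 9.99 and 7.40 FPKM, had adjusted p-values from limma of 0.42 and 0.15. HES1, a Notch target, had 12.5 and 7.15 FPKM (limma, adjusted p = 0.12).

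An adjusted p under 0.05 was reached by 5 of these factors on the lower side, HNF4A, FOXA1 and MEIS1 among them, and by 3 on the higher side, NR5A2 and HLX among them, against 6.59% and 7.01% of all tested genes. FOXA1, MEIS1 and HLX are named after their values were seen. For MEIS1 the log2 fold change was -0.83 (limma, adjusted p = 0.014), and the adjusted p was over 0.05 without oeNC replicate 1 and without oeNC replicate 3, at most 0.057. For FOXA1 it was -0.51 (limma, adjusted p = 0.035) and for HLX 0.99 (limma, adjusted p = 0.022). The adjusted p of both was under 0.05 only without oeSTUB1 replicate 2 or oeSTUB1 replicate 3 among the 6 fits that left out 1 library, and it reached 0.13 for FOXA1 and 0.087 for HLX.

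In the list of endoderm formation 4 genes were tested and 1, KIT, was called lower. KIT, a receptor tyrosine kinase also used as a surface marker of definitive endoderm, fell from 42, 36 and 56 fragments to 5, 6 and 9, with a log2 fold change of -1.31 (limma, adjusted p = 0.010), and its adjusted p was 0.055 without oeNC replicate 3. CXCR4, EOMES and GSC were not called, with log2 fold changes of 0.23, 0.47 and 0.04.

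Of 10 tested endocrine genes, 3 were called lower, 0 higher, and 9 had a log2 fold change below 0, with a median of -0.49. Over all 15353 tested genes, 369 (2.40%) were called lower and 7270 had a log2 fold change below 0. CHGB, a granin of secretory granules, fell from 27.6, 28.6 and 37.2 FPKM to 10.4, 10.9 and 13.7 FPKM, a log2 fold change of -1.41 (SE 0.15, limma, adjusted p = 0.001). DDC, the aromatic amino acid decarboxylase, fell from 5.997 ± 0.438 to 1.93 ± 0.395 FPKM (SD, n = 3 each), a log2 fold change of -1.60 (SE 0.15, limma, adjusted p = 0.00065). DDC is also expressed in cells outside the endocrine lineage, such as those of the proximal tubule and gut.

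ABCC8, the sulfonylurea receptor of the potassium channel of beta cells, fell with a log2 fold change of -1.10 (limma, adjusted p = 0.034). Its call was lost without oeNC replicate 1 (limma, adjusted p = 0.11), oeNC replicate 2 (0.086) or oeNC replicate 3 (0.12), and without oeSTUB1 replicate 2 its log2 fold change was -0.79. GIP, the incretin hormone, had means of 4.53 and 3.58 FPKM (log2 fold change -0.36, limma, adjusted p = 0.30). KCNJ11, the pore of the channel that ABCC8 regulates, had a log2 fold change of -0.62 (limma, adjusted p = 0.059), and CHGA one of -0.07 (limma, adjusted p = 0.92). The hormone gene INS had 1 fragment over the 6 libraries, and the endocrine factors NEUROD1 and NKX2-2 had 1 and 2, so these defining genes of pancreatic endocrine cells were at or near 0 in both groups.

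Of 5 tested intestinal genes, 3 were called lower and 5 had a log2 fold change below 0, with a median of -1.43. Over all 15353 tested genes these were 369 (2.40%) and 7270. VIL1, which encodes villin of the brush border, fell from 1.73, 1.72 and 1.92 FPKM to 0.357, 0.256 and 0.320 FPKM, a log2 fold change of -2.21 (SE 0.16, limma, adjusted p = 0.0002). CDH17, the liver-intestine cadherin, fell from 11.96 ± 0.463 to 4.53 ± 1.49 FPKM (SD, n = 3 each), a log2 fold change of -1.43 (limma, adjusted p = 0.0037). Both had groups that did not overlap, as CDX2 had and as 17.3% of all tested genes had with oeSTUB1 below. CDX2 had the lowest FPKM of these 3 in each library.

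KRT20, an intestinal keratin, fell from 48, 69 and 87 fragments to 9, 7 and 37, with a log2 fold change of -1.77 (limma, adjusted p = 0.035). Its adjusted p was 0.069, 0.12 and 0.13 without oeNC replicates 1, 2 and 3 and 0.097 without oeSTUB1 replicate 1. LGALS4, a galectin of the gut, had a log2 fold change of -0.95 (limma, adjusted p = 0.0082), short of the minimum. It was -1.03 without oeSTUB1 replicate 2, which made it a call, and its adjusted p was 0.051 without oeNC replicate 2.

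The label of a bile duct epithelial line was set against its markers. KRT8 and KRT18 stood at means of 3216 and 3964 FPKM in oeNC and 2172 and 2488 FPKM in oeSTUB1, and KRT7 at 502 and 704 FPKM, while KRT19, a duct keratin, was low with 0.453 and 2.97 FPKM. In oeNC, ANXA4 and SPP1 of the same list had means of 131 and 125 FPKM. MUC1 and AQP1 had 1.16 and 0.245 FPKM there, and PKHD1 and CFTR were nearly absent with 0.00915 and 0.0015 FPKM. Of 10 tested bile duct and simple epithelium markers, KRT19 was called higher and EPCAM and CDH1 lower, against 2.79% and 2.40% of all tested genes. EPCAM fell short of the minimum without oeNC replicate 3 or oeSTUB1 replicate 1 (-0.92) and CDH1 without oeSTUB1 replicate 2 (-0.89). An adjusted p under 0.05 was reached by 6 of the 10 on the lower side and 2 on the higher side. Over all tested genes these shares were 6.59% and 7.01%. Short of the minimum were KRT8, KRT18, SPP1 and ANXA4 (limma, adjusted p = 0.037, 0.024, 0.026 and 0.013), all lower, and MUC1 (limma, adjusted p = 0.0078), higher. The list summed to 7660 to 8260 FPKM in oeNC and 4880 to 6460 FPKM in oeSTUB1, most of it KRT8 and KRT18. These markers moved with the same groups as RFX6, CDX2 and SOX4, and their part in those differences was not tested. Hepatocyte markers summed to 96.4 to 102 FPKM and 55.1 to 75.6 FPKM, nearly all of it FGB, with ALB at 0.0327 and 0.0388 FPKM. Of the 3 tested, AHSG was called lower (log2 fold change -1.44, limma, adjusted p = 0.035), which was lost without any single oeNC library (adjusted p at most 0.12). FGB had a log2 fold change of -0.64 (limma, adjusted p = 0.011), short of the minimum, and its adjusted p was over 0.05 without oeNC replicate 1 or oeNC replicate 2, at most 0.055. These genes, too, moved with the groups, and their part was not tested. Markers of fibroblasts, endothelium and leukocytes summed to at most 4.05, 2.02 and 33.2 FPKM in a library, most of the leukocyte sum CD68 and CD14. Of their 7 tested genes 0 were called, against 5.20% of all tested genes. CD68 (log2 fold change -0.50, limma, adjusted p = 0.003) and FLT4 (-0.47, limma, adjusted p = 0.033) were lower, short of the minimum. Differences between replicates went beyond sampling noise, most of all in pairs with oeSTUB1 replicate 2, and in the other oeSTUB1 libraries RFX6 had at most 1 fragment and CDX2 at most 2.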

How the data were processed

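RNA from 3 oeNC and 3 oeSTUB1 libraries of TFK1 cells was measured by RNA-seq after TRIzol extraction, and the sample titles gave the groups and replicate numbers. The authors deposited 1 table of FPKM values for 23569 genes. The submitters' processing notes name fastp 0.20.1, HISAT2 2.1.0, HTSeq 0.11.2, R 3.2.0 and the build GRCh38.p13. The annotation and the use of strand are not given in the sources used here. Value columns of no mapped sample numbered 0.

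Whole fragments were recovered from the steps of the FPKM values for 23569 genes (100.0%, tolerance 0.02 fragments), with a largest difference of 4.9e-06 FPKM. The smallest gene length that gave whole fragments was used, so fragment numbers may be understated by a common factor. Intervals and the floor of 3 fragments cover counting error only.

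Genes whose mean reached 0.1 FPKM were fitted on log2(FPKM + 0.1) over all 6 libraries by lmFit and eBayes with a trend, two-sided, of limma 3.58.1 (R 4.3.3), with Benjamini-Hochberg adjustment over 15353 genes. The fit and the recovery were tested on simulated data. Other steps used Python 3.11.15. Positions are those of GENCODE release 29 (GRCh38), and promoters those of RefSeq.

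The 10 members and the 6 lists of other genes were chosen with earlier results of these data known. Named genes were the members, STUB1, each called list gene, up to 4 further genes of each list by mean FPKM, and the 3 genes nearest in profile to RFX6 and to each other called member. Genes outside this rule are INS, NEUROD1, NKX2-2, FOXA1, MEIS1, HLX, GATA6-AS1, AC091588.3, AL512380.2 and PROX1-AS1, and the cell type markers were taken from fixed lists. Some genes that the rule would name are not reported here. Alternatives were other pseudocounts (1 and 0.01), the table unfiltered or filtered at 1 FPKM, median-ratio scaling, quantile normalization, no trend, a replicate block, voom on the recovered fragments and leaving out each library.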

Additional observations from a re-analysis of the deposited data

How the results depend on the processing

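Among the log2 fold changes of STUB1 and the 8 tested factors, only GATA4 and SOX17, whose groups overlapped, changed sign in any alternative, GATA4 without oeNC replicate 3 and with quantile normalization (0.01) and SOX17 without oeSTUB1 replicate 2. With a pseudocount of 1, 120 genes were called higher and 120 lower in place of 429 and 369, the list genes called were 1 higher and 4 lower in place of 4 and 8, and the factors called lower were 0 in place of 2. There RFX6 had a log2 fold change of -0.53 and CDX2 of -0.35, which the construction shrinks for genes with low values. With a pseudocount of 0.01 they were -5.17 and -3.35, and with limma-voom on the recovered fragments -6.25 and -3.73, and SOX4 was then called, so that 1 factor was called higher in each. Over all genes limma-voom called 464 higher and 444 lower. A filter at a mean of 1 FPKM left 202 genes called higher and 182 lower and 5 list genes lower, and 0 factors lower because RFX6 and CDX2 were not tested there. The quantile normalization gave STUB1 a log2 fold change of 0.96.

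Without 1 library, 330 to 448 genes were called higher and 280 to 406 lower, 3 to 4 and 5 to 8 of the list genes, and 0 to 1 and 2 of the factors. The log2 fold change then ran from 0.93 to 1.08 for STUB1, from -2.63 to -2.11 for RFX6, from -1.97 to -1.58 for CDX2, from 0.95 to 1.03 for SOX4, from -0.16 to 0.10 for GATA4 and from -0.08 to 0.22 for SOX17. Of the 12 called list genes, 5 (NR5A2, CHGB, DDC, CDH17 and VIL1) kept their call in each alternative in which they were tested.

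Samples with the same replicate number did not deviate together, with correlations of -0.15, -0.08 and 0.15 for numbers 1, 2 and 3, so the numbers were not taken to pair the libraries. With the replicate number as a block, 405 genes were called higher and 353 lower, the list genes were 3 and 8 (SOX7 had an adjusted p of 0.08 from limma), and the factors stayed at 0 and 2. Depth limits PDX1 and PROX1, with at most 10 fragments in a library, and the oeSTUB1 values of RFX6 and CDX2, with at most 6.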
